A study of Mus musculus with 3 samples.

Results

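The genes described here encode the voltage-gated sodium channels (Scn), the voltage-gated calcium channels (Cacna1, Cacna2d and Cacnb) and the hyperpolarization-activated cation channels (Hcn) of the mouse. Protein-coding genes were chosen by symbol, and each had to be present in the deposited count tables of all 3 regions (5′ UTR, coding sequence or CDS, and 3′ UTR), with the longest such transcript used. This gave 35 genes of 20808 in all: 9 sodium channel alpha and 4 sodium channel beta subunits, 10 calcium channel alpha1, 4 alpha2delta and 4 beta subunits, and 4 HCN channels. Scn4a, the alpha subunit of skeletal muscle, has no 5′ UTR in the tables and is not a member, and its CDS held 5, 1 and 2 reads in the Chx, Harr and WT libraries.

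The study used ribosome profiling, in which mRNA fragments protected by ribosomes are sequenced, on primary cortical neurons taken from embryonic CD-1 mice and grown for 12 days in vitro. Each of 3 libraries pooled 3 culture dishes: WT was left untreated, Chx was given 100 µg/ml cycloheximide for 2 min, which halts elongating ribosomes, and Harr was given 2 µg/ml harringtonine for 2 min before a cycloheximide pulse. Harringtonine stops ribosomes at the start of translation, and ribosomes farther along continue to the end. Cycloheximide was also in the buffers in which all cells were rinsed and lysed, and with 1 library per treatment no difference below has a replicate check or a p-value.

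The study reports that its cultures were free of non-neuronal contaminants, and marker genes of other cell types had some reads in these libraries. Lower reads of a gene may reflect fewer cells of a type or less RNA per cell, which bulk libraries cannot tell apart. Summed CDS reads of 6 neuronal markers were 4343, 3886 and 4382 per 1000000 aligned reads in Chx, Harr and WT, against 195, 78.8 and 213 for 4 astrocyte markers. The 2 interneuron markers Gad1 and Gad2 summed to 887, 475 and 999, and the 4 microglial markers to 3.67, 0.615 and 2.55. The 4 oligodendrocyte markers summed to 6.52, 2.15 and 5.72, with Mog and Mobp at 0 in all 3 libraries. Those of striated muscle summed to 87.5, 17.4 and 102.0, of which nearly all was Acta1, so that the cultures carried the neuronal label's markers at the highest sums of the lists examined. The part of other cell types in the values below was not tested.

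Voltage-gated sodium channels open briefly on depolarization and drive the rising phase of the action potential, with a large pore-forming alpha subunit and small beta subunits that act in gating, surface delivery and adhesion. Voltage-gated calcium channels turn depolarization into calcium entry for transmitter release, dendritic spikes and signalling to the nucleus. Their alpha1 subunit forms the pore, and the alpha2delta and beta subunits carry it to the membrane and set its gating. HCN channels open on hyperpolarization and carry the depolarizing current that sets resting potential and rhythmic firing in many neurons.

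The starts of 6 of the sodium channel alpha coding sequences are shown first, because most of them share an ATG at the same place ahead of the start codon. Of the 6 genes, Scn3a and Scn8a had enough reads for the 5′ UTR densities given below. Each line gives the 12 bases before the annotated start codon, the start codon and the next 12 bases, read 5′ to 3′ along the transcript from GENCODE M21 transcript sequences, with mm10 coordinates. Capitals mark the annotated ATG, which is the second of a pair where 2 are shown, and any ATG beginning 8 bases upstream of it.
Scn3a, chr2:65536662-65536688, minus strand: caggATGaaaagATGgcccaggcactg
Scn8a, chr15:100936313-100936339, plus strand: cagaATGagaagATGgcagcgcggctg
Scn9a, chr2:66568250-66568276, minus strand: caggATGagaagATGgcgatgttgcct
Scn10a, chr9:119694311-119694337, minus strand: aagaATGagaagATGgagttccccttt
Scn7a, chr2:66757343-66757369, minus strand: ataaaaccgaaaATGttgacttcccca
Scn11a, chr9:119819981-119820007, minus strand: ccaagggtgaagATGgaggagaggtac

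The ATG placed 8 bases upstream occurred in 7 of the 9 sodium channel alpha genes and was missing from Scn7a, which encodes a sodium-sensing channel, and from Scn11a, a channel of sensory neurons. Among the other 26 members Cacna2d2 alone had it, which makes 8 of 35 members, or 22.9%, against 168 of 20430 genes with a 5′ UTR of at least 12 bases, or 0.822%. The 7 sodium channel genes belong to 1 family and have much alike start sequences, so they do not count as independent cases. Only ATG on the transcript's own strand was searched, and the feature was noticed after the sequences had been read. The reading frame opened by this ATG differs from that of the channel and runs for 276 to 297 bases in the 6 sodium channel genes other than Scn10a and for 180 in Scn10a. It ends inside the coding sequence, 172 to 289 bases past the annotated ATG, in each of the 7 genes. Upstream ATGs of any position were found in 27 of 35 members, or 77.1%, against 55.4% of 20726 genes. Scn1a, Scn2a and Scn3a carried 7, 7 and 5 of them, against a median of 2 over members and 1 over all genes. Their 5′ UTRs were also lower in GC content, at 47.2%, 42.2% and 41.2%, than the median of members, 69.2%, and of all genes, 59.8%.

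The libraries held 35722483, 9754412 and 30219197 aligned reads (Chx, Harr, WT), so that 3 counts correspond to 0.0840, 0.308 and 0.0993 reads per 1000000. Members together held 35617, 8946 and 26559 CDS reads, or 0.176%, 0.237% and 0.159% of the CDS reads of all genes. Levels are given as RPKM, CDS reads per kilobase of CDS and per 1000000 CDS reads of the library, in the order Chx, Harr and WT throughout. Over members with at least 10 CDS reads the median level was 15.0, 21.1 and 13.8 RPKM, near the 16.8, 21.4 and 16.5 RPKM of all such genes, and 13 members lay above the all-gene median in each library. The Harr library was the shallowest and its counting intervals are the widest. All intervals are 95% intervals for counting error alone, and PCR copies of a fragment, where any were left after the authors' removal of duplicates, would make them too narrow.

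Among the sodium channel alpha subunits the most translated was Scn2a, the main alpha subunit of young cortical excitatory neurons, at 39.8, 54.1 and 37.7 RPKM. Scn3a, a form prominent in embryonic brain, followed at 10.4, 14.5 and 9.41 RPKM. Scn1a, known for its role in inhibitory interneurons, was at 8.43, 10.4 and 8.55 RPKM. Scn8a, the channel of mature axon initial segments and nodes, was at 8.60, 13.5 and 7.57 RPKM. Scn2a thus stood alone at the top and the other 3 central channels lay close together, with Scn2a making up 58.3% of the summed alpha level in WT. Scn9a, best known from sensory neurons, was at 0.748, 0.845 and 0.927 RPKM, and Scn7a at 0.373, 0.473 and 0.345 RPKM. Scn10a and Scn11a, channels of sensory neurons, had 8, 3 and 3 reads and 1, 1 and 5 reads. Part of the alpha signal cannot be assigned to 1 gene, because 23.1% of the 25-base stretches of the Scn3a CDS, 21.7% of Scn2a, 16.9% of Scn1a and 14.1% of Scn9a also occur in other genes, against 3.23% for Scn8a. The study's methods allow several alignments per read in its search for open reading frames, and which alignments lie behind the counts used here is not stated.

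Of the sodium channel beta subunits, Scn3b was at 94.4, 72.4 and 92.3 RPKM, the highest level of any member in Chx and WT. Scn2b was at 31.9, 22.5 and 37.9 RPKM. Scn3b and Scn2b were each lowest in the Harr library. Scn4b had 3, 0 and 2 reads, at or under the floor of 3 counts in each library. The summed beta level was 2.28, 1.17 and 2.50 times the summed alpha level.

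Among the pore-forming calcium channel subunits the presynaptic types led. Cacna1b (N-type) was at 21.2, 26.3 and 18.6 RPKM, Cacna1e (R-type) at 16.5, 23.1 and 13.8 RPKM, and Cacna1a (P/Q-type) at 13.8, 18.9 and 11.5 RPKM. Their sum of 51.5, 68.4 and 43.8 RPKM compares with 9.41, 13.5 and 8.04 RPKM for the L-type and 9.76, 10.7 and 7.30 RPKM for the T-type genes. Of the L-type channels, which signal from soma and dendrites, Cacna1c was at 6.70, 10.5 and 5.62 RPKM. The transcript of Cacna1d used here has a CDS cut short at 1542 bases, on which the gene was at 2.60, 2.75 and 2.29 RPKM, and on the transcript with most reads (CDS of 6564 bases, 264, 85 and 181 reads) it was at 1.65 RPKM in WT. The L-type genes of skeletal muscle and retina, Cacna1s and Cacna1f, had 11, 4 and 10 reads and 1, 0 and 1 reads. The low-threshold T-type genes, which support burst firing, were at 5.74, 5.65 and 4.00 RPKM (Cacna1h), 2.11, 2.61 and 2.08 RPKM (Cacna1i) and 1.90, 2.45 and 1.23 RPKM (Cacna1g).

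Of the auxiliary calcium channel subunits, Cacna2d1, the main target of gabapentin, was at 56.2, 98.9 and 52.1 RPKM, the highest level of any member in the Harr library. Cacna2d2 was at 20.6, 32.7 and 20.9 RPKM and Cacna2d3 at 16.1, 21.1 and 14.0 RPKM, whereas Cacna2d4, known from retina, had 4, 0 and 8 reads. All 3 detected alpha2delta genes were highest in Harr on this scale, but per aligned reads Cacna2d3 was lower in Harr than in Chx, by a log2 ratio of -0.16 ± 0.10 (SE). Of the cytosolic beta subunits, Cacnb1 was at 53.7, 78.7 and 46.6 RPKM, Cacnb3 at 28.8, 39.7 and 23.5 RPKM, Cacnb4 at 24.0, 29.7 and 24.8 RPKM and Cacnb2 at 7.04, 12.5 and 8.41 RPKM. The alpha2delta sum was 1.32, 1.65 and 1.47 times and the beta sum 1.61, 1.74 and 1.75 times the alpha1 sum, so that both sums exceeded that of the pores in each library.

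The HCN genes were all translated. Their levels summed to 104.2, 124.5 and 90.5 RPKM. Hcn2 was at 25.2, 36.1 and 24.5 RPKM, Hcn3 at 23.8, 23.0 and 17.5 RPKM, and Hcn4, the main pacemaker form of heart and thalamus, at 10.9, 13.5 and 8.02 RPKM. In WT the order of the 28 highest members holds 27 neighbouring pairs, of which the counting interval of the ratio excluded 1 in 17. The 10 pairs that did not differ beyond that interval included Scn2b and Scn2a, Cacnb4 and Hcn2, Hcn2 and Cacnb3, Cacna1b and Hcn3, Cacna2d3 and Cacna1e, Scn1a and Cacnb2, Cacnb2 and Hcn4, Hcn4 and Scn8a, and Cacna1d and Cacna1i. The plot of levels groups the genes by subfamily and shows the wide intervals of the lowest.

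**Figure D1:**
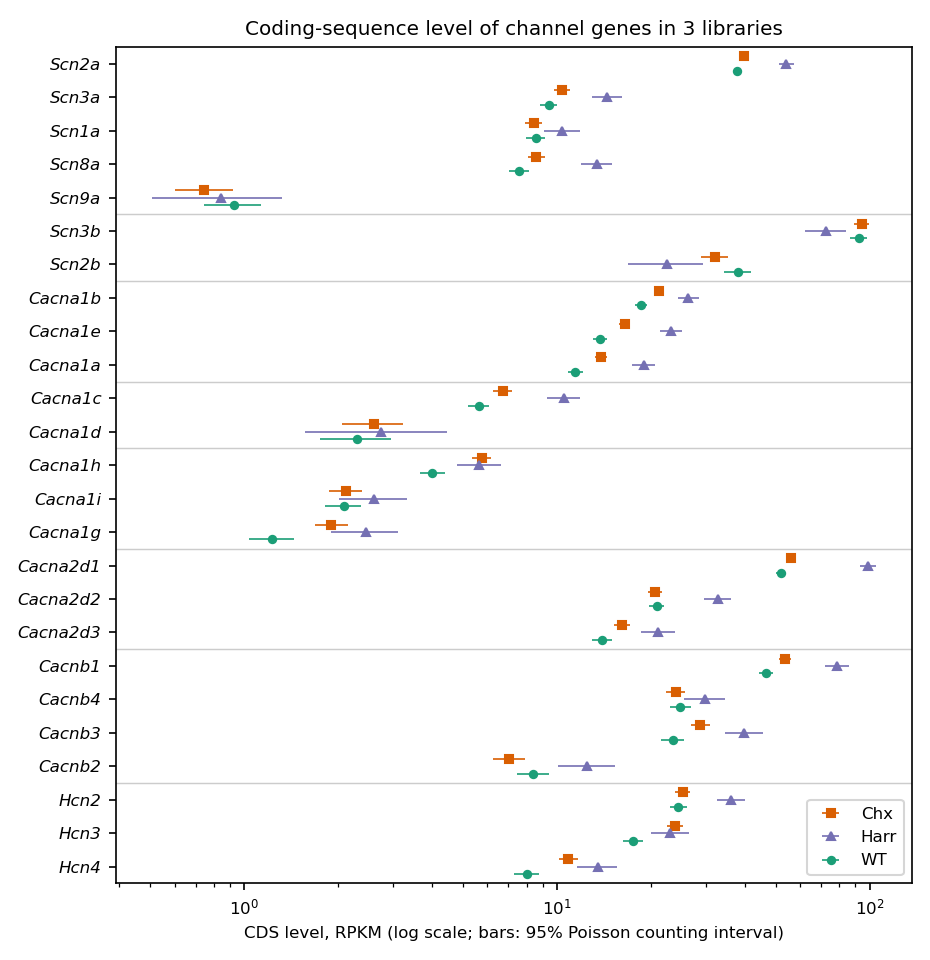
CDS level (RPKM, log axis) of 25 members that had 100 or more CDS reads in all, by subfamily, in the Chx, Harr and WT libraries, with 95% counting intervals and 1 library per treatment. Scn3b leads in WT at 92.3 RPKM, Cacna2d1 leads in Harr at 98.9 RPKM, and Scn9a is lowest.

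The density of reads in the 5′ UTR was set against that of the CDS in the same transcript, as reads per base of the 5′ UTR over reads per base of the CDS, where the library held 100 or more CDS reads of the gene. Reads were counted at their 5′ end with no offset, so a ribosome on the start codon is counted in the 5′ UTR, and a value above 1 may hold such ribosomes as well as ones farther upstream. In untreated neurons the median was 0.950 over 25 members against 0.362 over all genes, and 12 of 25 members exceeded 1 against 18.6% of all genes. In Chx the medians were 1.05 and 0.647, with 13 of 25 members above 1 against 33.7% of genes. In Harr they were 3.94 and 3.22, with 17 of 20 members above 1 against 81.2% of genes. The members above the all-gene median numbered 18 of 25 in WT, 19 of 25 in Chx and 15 of 20 in Harr, and in Harr the share above 1 was near that of all genes. This measure was added after the data had been seen.

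On the longest transcripts Scn1a, Scn2a and Scn3a were the highest of the members in WT. Scn2a had 857, 718 and 664 reads in its 296-base 5′ UTR, which gave 3.60, 11.9 and 3.56 times the density of its CDS. Scn1a had 97, 93 and 133 reads in 252 bases, or 2.26, 9.39 and 3.70 times the CDS density. Scn3a had 144, 276 and 141 reads in 277 bases, or 2.48, 18.2 and 3.24 times. In WT 98.4%, 98.5% and 97.9% of all genes lay below these values. No 25-base stretch of the 5′ UTRs of these 3 genes or of Scn8a occurs in another gene, in contrast to their coding sequences. Over the 9 sodium channel alpha genes summed, the ratio was 2.93, 11.2 and 3.12, against 0.793, 6.30 and 0.552 for the beta subunits. HCN genes summed to 1.38, 5.45 and 0.491, alpha2delta genes to 1.35, 3.49 and 0.447, and calcium channel beta genes to 0.714, 2.41 and 0.394. The pore-forming calcium channels lay between. Their sums were 1.81, 4.36 and 1.38 for the P/Q-, N- and R-type genes and 1.44, 4.19 and 1.41 for the T-type genes. The L-type genes were at 0.736, 3.36 and 1.28. The 5′ UTRs of Cacna1a and Cacna1e overlap annotated CDS. They held 132 and 109 of the 269 WT 5′ UTR reads of the P/Q-, N- and R-type genes. For Cacna1b, whose 5′ UTR has no such overlap, the WT interval was 0.760 to 1.60 and included 1. In WT the summed ratio thus exceeded 1 for the sodium and calcium channel alpha subfamilies, and not for the auxiliary and HCN subfamilies. Each sum takes the reads and lengths of all genes of a subfamily. The L-type sum counts the long coding sequences of Cacna1s and Cacna1f, which had no 5′ UTR reads, and this raises its ratio. Single genes did not all follow the sums. In WT the auxiliary gene Scn2b lay above 1 (interval 1.28 to 1.76). The pore gene Cacna1i was at 0.719, with an interval that included 1.

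The exons of these 5′ UTRs show where the reads lay. In Scn2a the upstream exon (chr2:65620771-65621015, mm10, plus strand) held 723, 572 and 570 reads, 3.67, 11.4 and 3.70 times the CDS density, and the 51 bases of 5′ UTR in the start codon's exon held 134, 146 and 94 reads, 3.27, 14.0 and 2.93 times. In Scn1a the upstream exon (chr2:66409862-66410064, minus strand) held 89, 86 and 126 reads, 2.57, 10.8 and 4.35 times, and the start exon held 8, 7 and 7, or 0.958, 3.63 and 1.00 times. Scn1a reads thus sat mainly in the upstream exon. Scn3a had dense reads in both parts, with 99, 207 and 108 reads upstream and 45, 69 and 33 in the start exon. Scn8a differed, with 19, 10 and 8 reads in its 165-base upstream exon, 0.663, 1.19 and 0.384 times the CDS density, and 46, 44 and 21 reads in the 54 bases of the start exon, 4.90, 16.0 and 3.08 times. The choice of transcript matters here: the Scn2a transcript with most CDS reads has another upstream exon, and its 101-base 5′ UTR held 135, 159 and 101 reads, 1.66, 7.69 and 1.59 times the CDS density. The Scn3a transcript with most CDS reads had 1.73, 12.7 and 2.19 times. On such transcripts Cacna1g (2.63) and Cacna1a (2.46) thus lay above Scn2a and Scn3a in WT, and Scn1a, whose transcript is the same, stayed at 3.70.

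**Figure D2:**
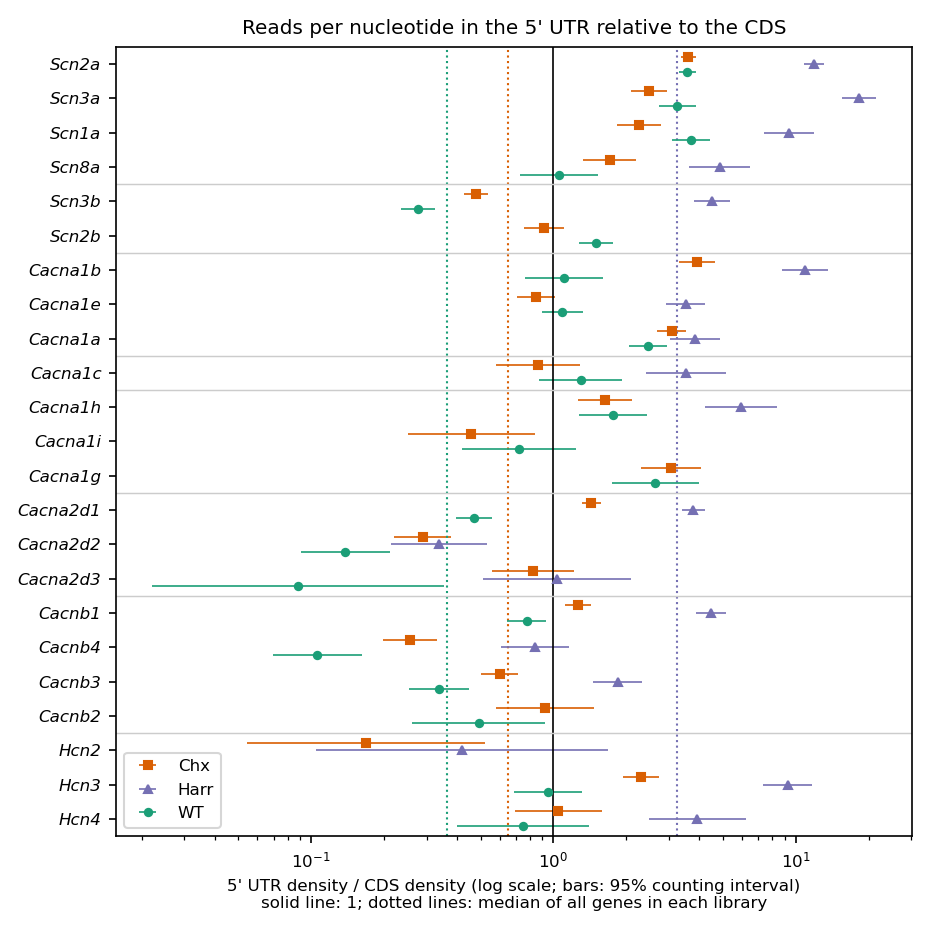
Read density of the 5′ UTR over that of the CDS (log axis) for members that had 100 or more CDS reads in the library, on the longest transcripts, with the all-gene medians drawn as lines. Scn1a, Scn2a and Scn3a lie highest in WT, at 3.70, 3.56 and 3.24, and Scn3a reaches 18.2 in Harr.

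Grouped by the number of upstream ATGs, the 5 members with none, which include Cacna2d3, Cacnb3, Hcn2 and Hcn4, had a WT median of 0.264, against 0.268 over 4606 genes, and none of the 5 exceeded 1. The 14 members with 1 or 2 had 0.863 against 0.448 over 3232 genes. Cacna1g, Scn2b and Scn8a, with 3 or 4, had a median of 1.5 against 0.608 over 1187 genes. Scn1a, Scn2a and Scn3a, the members with 5 or more, had 3.56 on the longest transcripts against 0.611 over 947 genes, of which 34.0% exceeded 1. The members' medians were therefore close to the class median where no upstream ATG was present and above it in the other classes, but single members spread widely. Those with none ran from 0 (Hcn2) and 0.0885 (Cacna2d3) to 0.748 (Hcn4), and of those with 1 or 2, Cacnb4 (0.106), Cacna2d2 (0.138) and Scn3b (0.275) lay below their class median.

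The change in the 5′ UTR:CDS ratio between libraries was taken as a log2 odds ratio, with 0.5 added to each count, where the pair of libraries together held 10 or more reads of the 5′ UTR and of the CDS. A value was called where it was at least 1 in size and its counting interval excluded 0. The 3 comparisons share libraries and are not independent of each other. From WT to Harr the ratio was higher in all 25 members measured, with a median of 2.35 against 3.23 over all genes, and 23 of 25 were called higher against 94.3% of all genes. The members rose less than the typical gene, with 6 of 25 above the all-gene median. From Chx to Harr the median was 1.83 against 2.46, 21 of 25 were called higher against 89.4% of genes, and 5 of 25 lay above the all-gene median.

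Among the largest changes from WT to Harr was that of Scn3b, whose 5′ UTR held 375, 508 and 174 reads (Chx, Harr, WT) against 1236, 177 and 997 CDS reads, for a log2 change of 4.03 ± 0.17 (SE). It had more 5′ UTR reads in Harr than in WT, although the Harr library was the shallower. The smallest was Cacna1a, with 241, 77 and 132 5′ UTR reads against 1986, 508 and 1358 CDS reads and a change of 0.64 ± 0.22, which was not called, and its 5′ UTR overlaps a CDS annotated for another transcript. Cacna1g (57, 27 and 26 5′ UTR reads) changed by 1.19 ± 0.45. Cacna1i (11, 9 and 14 reads) had 1.20 ± 0.64 and was not called. Leading genes of other subfamilies had 3.29 ± 0.32 (Cacna1b), 3.0 ± 0.15 (Cacna2d1), 2.52 ± 0.17 (Cacnb1), 1.75 ± 0.35 (Cacna1h), 1.74 ± 0.09 (Scn2a) and 1.44 ± 0.40 (Cacna1c). Scn1a, Scn2a and Scn3a, at 1.34, 1.74 and 2.48, lay below the all-gene median while their 5′ UTR density was already high in WT.

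Between Chx and WT the members spread widely, from -1.22 to 2.92, with a median of 0.69 against 0.67 over all genes. Of 25 members 8 were called higher in Chx against 30.3% of all genes, and 0 were called lower against 1.09%. Among the 8 were Cacna2d3 (2.92 ± 0.96), Cacna1b (1.80 ± 0.30), Cacna2d1 (1.60 ± 0.14), Hcn3 (1.26 ± 0.27), Cacnb4 (1.25 ± 0.36) and Cacna2d2 (1.04 ± 0.36). Cacna2d2 fell short of the call on the transcript with most reads, at 0.82. A further 8 members had values below 0, among them Scn1a (-0.71 ± 0.20) and Scn2b (-0.71 ± 0.18), whose counting intervals excluded 0 but whose size was under the limit. The plot of 5′ UTR changes sets the members side by side.

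**Figure D3:**
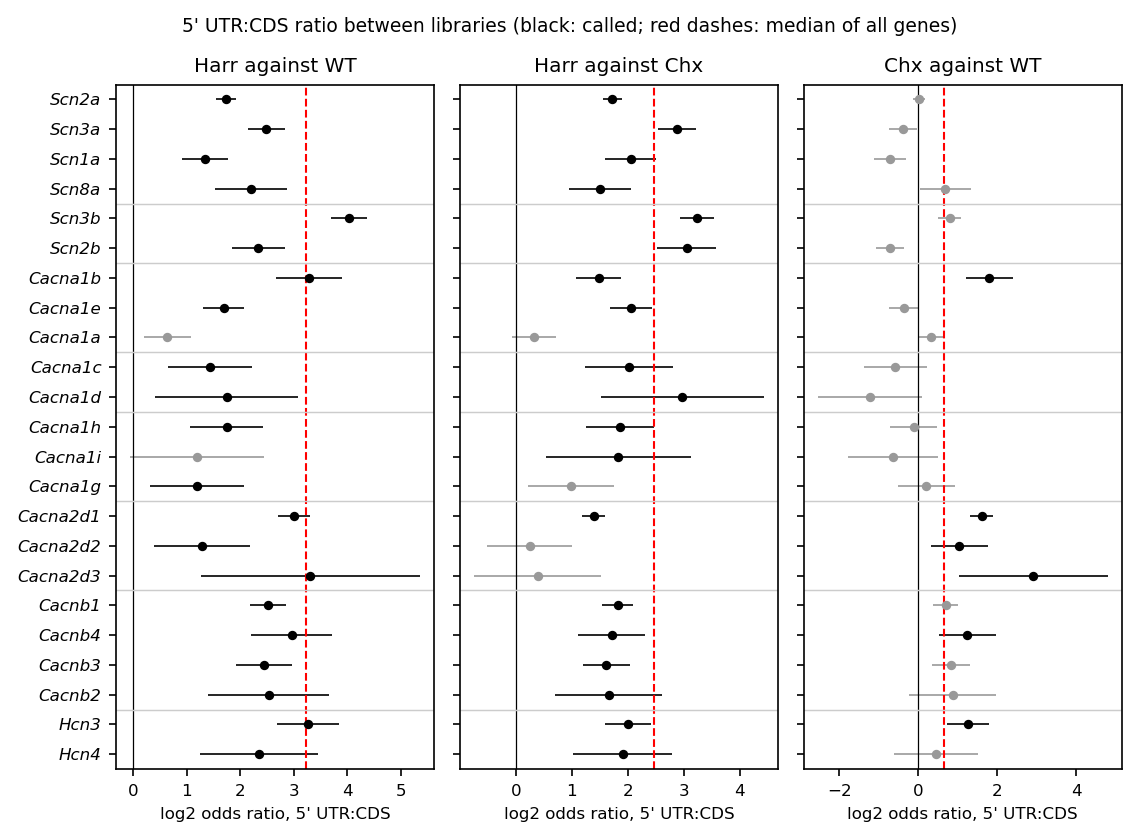
Log2 change of the 5′ UTR:CDS read ratio for 23 members between libraries, with 95% counting intervals and the all-gene median as a line for each comparison. From WT to Harr every member plotted lies above 0, from 0.64 for Cacna1a to 4.03 for Scn3b, and most lie below the all-gene median of 3.23.

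Reads in 3′ UTRs were few, at 0.670%, 1.75% and 0.853% of the members' reads against 1.71%, 4.10% and 2.18% of those of all genes. Cacna1d gave 183, 70 and 123 of the members' 269, 228 and 249 reads there, in a 3′ UTR that overlaps coding sequence of other Cacna1d transcripts. Without it the shares were 0.216%, 1.22% and 0.434%. From WT to Harr the 3′ UTR:CDS ratio of the 9 members past the same minimum had a median log2 change of 1.49 against 2.59 over all genes, and 6 of 9 were called higher against 79.8% of genes. Cacna2d1 with 6, 29 and 6 3′ UTR reads (3.40 ± 0.63), Cacnb4 with 3, 15 and 7 (2.93 ± 0.65) and Cacna2d3 with 0, 8 and 3 (2.83 ± 0.92) changed most. Hcn2 with 7, 5 and 8 reads (0.95 ± 0.79) and Cacnb3 with 0, 8 and 8 (1.38 ± 0.71) were not called. From Chx to Harr 5 of 8 members were called higher against 86.5% of genes, with a median of 2.59 against 3.76. In Chx against WT the median was -0.50 against -0.93, and 1 of 9 was called lower against 38.9% of genes. At these counts the order of the members is not resolved.

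The CDS level itself was compared as the log2 ratio of reads per 1000000 CDS reads. The minimum was 100 CDS reads over the libraries together, which 11459 genes and 27 members passed. From WT to Harr the members' median was 0.56 against 0.00 for all genes, and 23 of 27 were above 0. Cacna1g, with 275, 66 and 146 CDS reads, was the only member called higher (1.00 ± 0.21) against 5.3% of all genes, and it lost the call under other scalings. 0 members were called lower against 14.3% of genes. From Chx to Harr the median was 0.37 against -0.05, with 0 called higher or lower against 4.63% and 13.7% of genes. Between Chx and WT it was 0.14 against 0.03, with 0 called either way against 0.201% and 0.122% of genes. Scaling by all aligned reads moved the all-gene median to -0.51 from WT to Harr and the members' median to 0.05. With no minimum on reads the members' median from WT to Harr lay 0.12 above the all-gene median.

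Cacna2d1 (3718, 1223 and 2846 CDS reads, 0.92 ± 0.05) and Cacna1c (870, 255 and 602, 0.91 ± 0.11) followed Cacna1g from WT to Harr. Scn2b (418, 55 and 409) was among the lowest at -0.74 ± 0.21, as was Scn3b (1236, 177 and 997) at -0.35 ± 0.12. Both are sodium channel beta subunits with coding sequences of 648 bases. Leading members of other subfamilies had 0.51 ± 0.06 (Cacna1b), 0.50 ± 0.13 (Cacna1h), 0.76 ± 0.07 (Cacnb1) and 0.52 ± 0.05 (Scn2a).

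CDS length moves with this ratio across all genes, so members were set beside genes of like length. The 3 sodium channel beta subunits had a median of -0.74 against -0.52 for the 3144 genes of 600 to 1200 bases. The 5 members of 1200 to 2000 bases (Cacnb1, Cacnb2, Cacnb3, Cacnb4 and the shortened Cacna1d) had 0.58 against -0.01, and all 5 lay above their class median. The 7 members of 2000 to 4000 bases (the HCN and alpha2delta genes) had 0.60 against 0.44. The 12 members over 4000 bases, all pore-forming subunits, had 0.57 against 0.77 for 836 genes, and 3 of 12 lay above. From Chx to Harr these 12 had 0.41 against 0.66 and 0 of 12 lay above. The raised ratio of the members as a set thus stood beside long coding sequences, and within classes of length the longest members lay below and the calcium channel beta subunits above the typical gene.

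**Figure D4:**
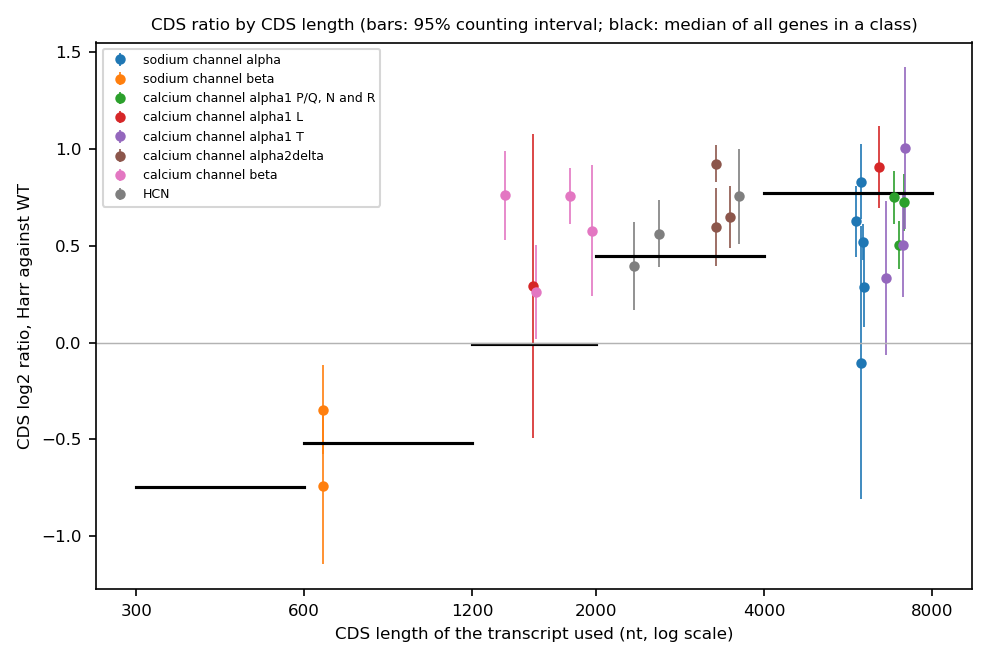
Log2 ratio of CDS reads, Harr against WT, by CDS length (bases, log axis) for 25 members, coloured by subfamily, with 95% counting intervals and the all-gene median of each length class in black. Scn2b and Scn3b lie lowest, at -0.74 and -0.35, and 9 of the 12 members over 4000 bases lie below their class median of 0.77.

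Where along the coding sequence the reads were lost was followed in members with a CDS of at least 3000 bases, with exon segments placed by their distance from the start codon. Reads in the first 600 bases (near) were set against those beyond 2100 bases (far). Scn2a had 1713, 167 and 1517 near reads (Chx, Harr, WT) and 1406, 535 and 1123 far reads, a log2 change of the near to far ratio of -2.11 ± 0.14 from WT to Harr. Its near reads dropped well below its far reads in Harr alone. All 13 members measured lay below 0, with a median of -2.11 against -1.64 over 1096 genes, and 11 of 13 were called lower against 74.5% of genes. Summed over members, the near to far ratio in Harr was 0.250 of that in WT (95% counting interval 0.228 to 0.275), against 0.315 in the other genes. From Chx to Harr 12 of 14 were called lower against 71.7% of genes, and the summed ratio was 0.272 (0.249 to 0.298) against 0.335.

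Cacna1a, with 371, 25 and 299 near and 974, 323 and 620 far reads, had the strongest change at -2.61 ± 0.31. Scn1a had 306, 30 and 347 near and 349, 130 and 284 far reads (-2.39 ± 0.31). Scn3a had 411, 42 and 362 near and 355, 154 and 257 far reads (-2.36 ± 0.28). In these 3 genes the near part kept few reads in Harr. Cacna2d3 (228, 29 and 108 near, 366, 118 and 285 far) had -0.61 ± 0.34 and Cacna1i (31, 5 and 36 near, 147, 35 and 122 far) had -0.94 ± 0.71, and neither was called. Cacna2d1 (859, 140 and 563 near, 1359, 709 and 1207 far) changed by -1.24 ± 0.15. Cacna2d2 had -1.94 ± 0.33. Between Chx and WT 0 of 15 members were called either way against 1.68% of genes in each direction, and the summed ratio was 0.918 (0.875 to 0.964) against 0.943.

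In bins of distance the Harr to WT ratio of the members, set to their far reads, was 0.258 in the first 300 bases, 0.231 from 300 to 600, 0.317 from 600 to 900 and 0.484 from 900 to 1200. It then reached 0.769 from 1200 to 1500 and 0.887 from 1500 to 2100. Other genes had 0.393, 0.220, 0.312, 0.524, 0.776 and 0.944 in the same bins. In this comparison the members and other genes were thus close beyond the first 300 bases and apart within them, where the intervals were 0.233 to 0.287 and 0.390 to 0.397. These intervals are of reads pooled over genes and hold no spread between genes. Whether a few members carry the difference in this bin was not tested. In the untreated neurons the first 300 bases held 4.93 times the far density in members and 2.70 times in other genes. The same bin held 4.34 and 2.64 times in Chx and 1.27 and 1.06 times in Harr. Between Chx and WT the members' ratio was 0.881 (0.834 to 0.931) in the first 300 bases, 1.18 (1.09 to 1.28) from 600 to 900 and 1.29 (1.17 to 1.42) from 1200 to 1500, where other genes had 0.977, 0.940 and 0.988. The bins between and around these had 1.01 from 300 to 600, 1.08 (0.976 to 1.19) from 900 to 1200 and 1.03 from 1500 to 2100, with intervals that include 1. Against Chx, the members' Harr ratio was 0.596 (0.521 to 0.682) from 1200 to 1500 bases against 0.786 in other genes.

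**Figure D5:**
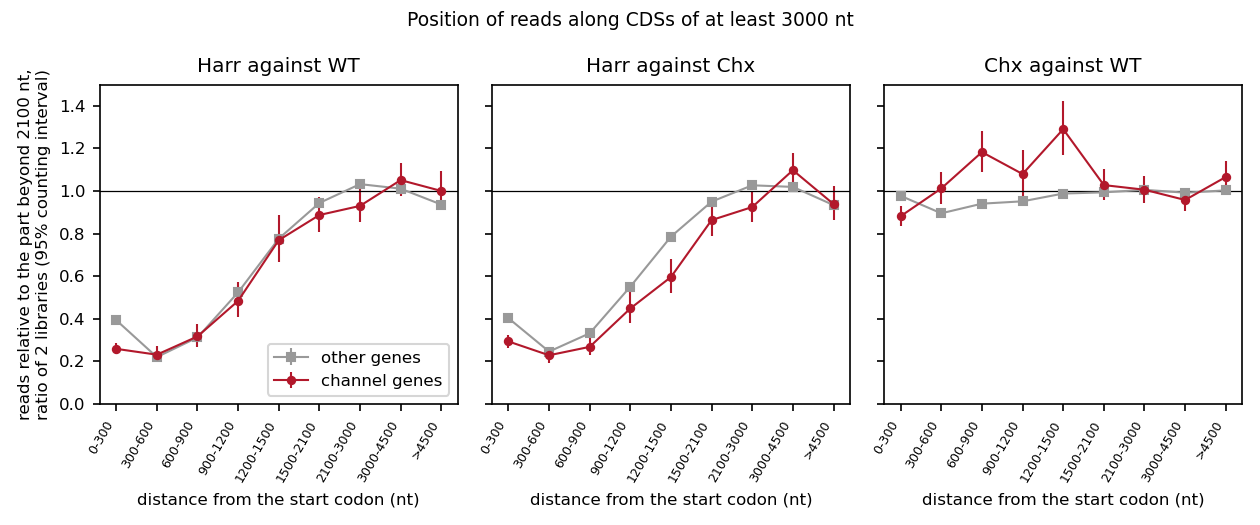
Harr to WT, Harr to Chx and Chx to WT read ratios in bins of distance from the start codon (bases), relative to the far part beyond 2100 bases, for members and for other genes with a CDS of at least 3000 bases. The members' Harr to WT ratio is 0.258 in the first 300 bases and 0.887 from 1500 to 2100.

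Several of these genes carry pairs of exons of equal length of which a transcript holds 1 or the other, and the reads in each exon report which form was translated. In Cacna1b the pair near the C-terminus is known from sensory neurons, where the upstream exon is enriched. The pairs of the calcium channel alpha1 genes with at least 30 reads over the 3 libraries are printed from GENCODE M21 transcripts, 5′ to 3′ on the coding strand, with capitals where the pair differs.
Cacna1b upstream, chr2:24626823-24626919, minus strand: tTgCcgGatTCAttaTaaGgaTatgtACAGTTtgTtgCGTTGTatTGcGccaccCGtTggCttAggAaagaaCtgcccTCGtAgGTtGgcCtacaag
Cacna1b downstream, chr2:24625238-24625334, minus strand: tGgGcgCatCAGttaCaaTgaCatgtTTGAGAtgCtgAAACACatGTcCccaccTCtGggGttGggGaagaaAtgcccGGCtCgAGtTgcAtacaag
Cacna1e upstream, chr1:154417950-154418046, minus strand: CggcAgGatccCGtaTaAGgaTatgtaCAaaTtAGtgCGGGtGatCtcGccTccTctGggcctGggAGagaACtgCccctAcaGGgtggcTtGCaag
Cacna1e downstream, chr1:154416061-154416157, minus strand: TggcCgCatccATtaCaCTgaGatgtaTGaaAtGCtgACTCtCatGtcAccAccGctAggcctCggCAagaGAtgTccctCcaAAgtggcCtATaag

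The exons of Cacna1b and Cacna1e, of 97 bases, agree at 58.8% and 62.9% of positions, and no 25-base stretch is shared within either pair. In Cacna1b the upstream exon had 0 reads in each library and the downstream exon 22, 7 and 10. The Wilson interval of 0 of 39 reads allows an upstream share of up to 8.97%. In Cacna1e the counts were 3, 0 and 6 upstream and 19, 17 and 19 downstream, or 14.1% upstream (7.58 to 24.6). None of the 25-base stretches of these 4 exons occurs in another gene. In these 2 pairs the reads were thus mostly or wholly from the downstream exon. Pairs of sodium channel alpha genes are not reported here, and this lean is not extended to them. Calcium channel alpha1 pairs below 30 reads did not all lean that way. A 104-base pair of Cacna1c had 5, 0 and 4 reads upstream and 0, 0 and 1 downstream. In Cacna1d a 104-base pair had 1 read upstream and 3 downstream over the libraries, and a 60-base pair 2 and 0. A pair of 57-base exons in Cacna2d1, unlike in sequence with 22.8% of positions equal, had 0 upstream and 38, 14 and 43 downstream reads. The Wilson interval of 0 of 95 reads allows an upstream share of up to 3.89%.

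A list of 25 genes whose products bind, tether or regulate these channels was read in the same way. In CDS ratio from WT to Harr 0 of 25 were called higher against 5.3% of all genes. 4 were called lower, near the 14.3% of all genes: Fgf12 (-1.44 ± 0.10), Fgf13 (-1.26 ± 0.09), Cacng5 (-1.21 ± 0.24) and Stac2 (-1.76 ± 0.58). Fgf12 and Fgf13 are small cytosolic proteins that bind the sodium channel C-terminus, and Cacng5 belongs to the family of auxiliary subunits of calcium channels and AMPA receptors. From Chx to Harr 1 was called higher, Rims1 (1.08 ± 0.13), a presynaptic scaffold that binds calcium channel beta subunits, and 4 lower, Fgf12, Fgf13, Cacng5 and Cacng8, against 4.63% and 13.7% of all genes. The Rims1 call rests on a transcript with a CDS of 660 bases, and other Rims1 transcripts were not tested. Between Chx and WT 0 were called, against 0.201% and 0.122%. In the 5′ UTR:CDS ratio 22 of 23 partners were called higher from WT to Harr against 94.3% of all genes, 19 of 22 from Chx to Harr against 89.4% and 4 of 22 from WT to Chx against 30.3%. The most read partners were Fgf13 at 218, 97.3 and 233 RPKM, Ank3, which anchors sodium channels at the axon initial segment, at 25.5, 39.4 and 23.4 RPKM, and Nedd4l, a ubiquitin ligase of sodium channels, at 54.9, 97.5 and 58.4 RPKM. Low values were not shared by all small Fgf partners. From WT to Harr, Fgf14 (CDS of 759 bases, 0.22 ± 0.16) and Fgf11 (678 bases, -0.15 ± 0.20) were not called. The long Ank3 (0.75 ± 0.06) was not called either.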

How the data were processed

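Per the file headers, the authors counted reads of 25 to 100 bases at their 5′ end with an offset of 0 (Plastid), on mm10 exon segments, from alignments named as free of ribosomal reads and duplicates. How duplicates were found is not stated. Rsubread is named in the study's methods before its Plastid counts of other libraries. TopHat, with several alignments per read, is named for its search for open reading frames. Which of these aligners was used for these files is not stated. The deposited counts are raw. The deposited coverage per base is the count divided by the segment length. The RPKM deposited by the authors is per kilobase and per 1000000 reads of the library. Only counts were used, and RPKM was recomputed from them.

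Identifiers of 142446 transcripts were joined to GENCODE M21 (99.0% with version, 99.3% without), segments were summed per transcript and region, and the longest transcript of each gene was taken. Wilson or Poisson 95% intervals, and normal intervals of log2 ratios with 0.5 added, cover counting error only. On simulated data the fits returned median changes near the simulated ones, though not every changed gene was called. Python 3.11.15, numpy 2.4.6, pandas 2.3.3 and scipy 1.17.1 were used.

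Members, partner and marker lists were chosen with earlier results of these data known. Values of some members and some sequences are not reported here. The other members are given by their level. Changes are given in full, among these, for the 3 highest and 3 lowest members with at least 200 CDS reads and for the most read member of each subfamily, and exon pairs needed 30 reads. Groups came from the recorded treatment. Alternatives changed the scaling, transcript, pseudocount, minimum, overlap and bins.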

Additional observations from a re-analysis of the deposited data

How the results depend on the processing

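Of 225 repeats of the summary values under other settings, 208 stayed within the tolerance set for each (the counting interval, the members' interval of the median, or 1.5 times for a count). Scaling by all aligned reads lowered the median levels to 8.48 (Chx), 8.17 (Harr) and 7.6 RPKM (WT), so that Harr no longer led, and gave CDS medians of 0.050 (Harr against WT) and -0.18 (Harr against Chx), 0 members called higher and 2 lower from WT to Harr, and 2 lower from Chx to Harr. Median-of-ratios size factors gave 0 higher and 1 lower from WT to Harr, where Cacna1g had 0.99, and no minimum gave 2 higher. With the transcript of most CDS reads the L-type sum was 8.68 RPKM in Chx and 7.29 in WT, and Cacna1d was called higher at 1.05 from WT to Harr. A minimum of 30 reads, which leaves fewer members, gave 3′ UTR calls of 3, 2 and 0 for Harr against WT, Harr against Chx and Chx against WT. A minimum of 300 CDS reads left 9 members with a 5′ UTR density above that of the CDS in Harr. A near part of 1200 bases gave summed log2 changes of -1.83 from WT to Harr and -0.029 from WT to Chx. Of 991 repeats for single members 942 kept their call or size, and 0 of the called values changed direction. No paired analysis was possible because each treatment has 1 library, and for the same reason no library could be left out. The settings for the 5′ UTR density were chosen after seeing the data. The Harr library's depth limits the members with few reads most.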
